A study of Homo sapiens with 12 samples.

Results

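WNT ligands, their receptors and the proteins that relay or restrain their signal were followed in MeWo and SkMel28, human melanoma cell lines that carry a hairpin RNA switched on by doxycycline (Dox). The hairpin targets MITF, a transcription factor of the melanocyte lineage. Members were taken by gene symbol alone: every WNT, FZD, DKK or DVL gene with a number, and 28 further named regulators, without symbols that hold a hyphen. Of 64 RefSeq genes that match, 41 were among the 12616 genes measured. RNA was measured in 4 groups of 3 libraries, MeWo control, MeWo Dox, SkMel28 control and SkMel28 Dox, where control cells received 0 and Dox cells 1 µg/ml for 8 days. All 4 groups carry the hairpin, and no line given Dox without it was measured, so that the effect of the drug and that of the hairpin cannot be told apart. The labels give EMEM for MeWo and RPMI for SkMel28, whereas the study's methods name RPMI for nearly all its human melanoma lines, and if the labels hold, line and medium cannot be told apart either. Whether either hairpin line is 1 clone is not given in the sources used here, and nothing states that the 3 libraries of a group come from separate experiments, so p-values measure the spread between these samples, which may be technical.

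WNT proteins are lipid-modified ligands that leave the cell with the help of carrier proteins and bind frizzled (FZD) receptors together with the co-receptors LRP5 and LRP6. Binding recruits dishevelled (DVL) and halts a destruction complex of AXIN, APC, GSK3 and CK1, so that β-catenin (CTNNB1) reaches the nucleus and works with TCF and LEF factors. Secreted inhibitors, receptor-removing ligases and feedback genes such as AXIN2 and NKD1 restrain the pathway. The neural crest needs WNT signalling to make melanocytes, and β-catenin with LEF1 is known to drive the MITF gene in this lineage.

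The libraries held 2568187 to 3714608 reads from the 3′ ends of transcripts, and the members took 0.180 to 0.240% of the gene reads. Values are normalised reads, scaled to a library of 1000000 reads, where 1 read is worth 0.278 to 0.389. All 10 melanocyte lineage markers examined were measured, while 0 of 4 endothelial, 1 of 6 keratinocyte (KRT10), 1 of 6 leukocyte (CD68) and 2 of 6 fibroblast markers (DCN and LUM) were listed. The summed lineage markers went from 13630 to 13880 in MeWo control to 6885 to 8594 with Dox, and from 11950 to 13330 in SkMel28 control to 7855 to 8209 with Dox. CD68 read 132.5 to 150.6 and 57.5 to 147 in MeWo without and with Dox, with overlap, and 78.2 to 100.9 and 18.7 to 23.0 in SkMel28, lower with Dox. The sum of DCN and LUM was lower with Dox in both lines, at 41.5 to 47.8 and 9.85 to 19.2 in MeWo and 10.9 to 13.3 and 6.04 to 8.91 in SkMel28. KRT10 read 86.2 to 160 in all libraries. PTPRC, COL1A1, KRT5 and KRT14 were not listed. The part of these markers in the results was not tested. MITF itself read 657, 663 and 708 in the MeWo control libraries and 451, 354 and 371 with Dox, and so fell by 42.0% with Dox (log2 -0.79, SE 0.11, adjusted p = 6.49e-05). In SkMel28 it read 861, 739 and 792 without and 575, 578 and 552 with Dox, and so fell by 28.7% (log2 -0.49, SE 0.11, adjusted p = 0.00705). In neither line did the control and Dox values of MITF overlap, and its calls held in all alternatives but 1, SkMel28 without a mean-variance trend (adjusted p = 0.05002). Library MeWo Dox replicate 1 had the lowest correlations with its replicates on the log2 scale over all genes, 0.960 and 0.969, beside 0.976 between the other MeWo Dox libraries and 0.979 to 0.985 in the other groups. These are bulk measurements, in which fewer cells of a kind and less RNA per cell cannot be told apart.

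Coverage of the pathway was uneven. Only 2 of 19 WNT ligand genes were listed, WNT5A and WNT10B, against 9 of 10 frizzled genes, 3 of 3 dishevelled genes, 2 of 4 Dickkopf genes (DKK1 and DKK2) and 25 of the 28 named regulators. The deposited table holds only genes that reach a value of 1 in 3 or more libraries, and the 23 others, which include FZD10, ROR2, NKD2 and NOTUM, are not analysed here. Of the 41 members, 18 had a mean over the 12 libraries under 10, 21 lay between 10 and 100, and 2 were above 100. The median of these means was 13.6 over the members and 18.1 over all genes. A total of 7 members had at most 3 reads in every library of at least 1 group, a level treated here as the floor (a value of 0.835 to 1.17): WNT5A, WNT10B, FZD8 and RNF43 in both MeWo groups, SFRP1 in MeWo control, and DKK2 and FZD9 in both SkMel28 groups. A total of 8 members reached the value of 1 in fewer than 3 libraries of one line and so entered the table through the other line, 5 through SkMel28 (FZD8, RNF43, SFRP1, WNT10B and WNT5A) and 3 through MeWo (DKK2, FZD4 and FZD9). Their differences between the lines are in part fixed by that filter.

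The first comparison asked which WNT genes changed with Dox in each line, taking limma's adjusted p below 0.05 over all 12616 genes, on log2 of (value + 1), as a call. In MeWo 8 of the 41 members were called, or 19.5%, against a background of 16.7% of all genes. NKD1, FZD9, ROR1, LRP5, FZD2 and WLS rose, where 8.58% of all genes rose, and FZD7 and CTNNB1 fell, where 8.12% of all genes fell. In SkMel28 8 of 41 were called as well, 19.5% against a background of 10.9%. FZD7, LGR4, BCL9, WLS, SFRP1 and FZD3 rose (background 5.88%) and DVL2 and CTNNB1 fell (background 5.04%). The MeWo share is near its background, and the SkMel28 share rests on 8 genes. The median log2 change of the 41 members was 0.14 in MeWo and 0.29 in SkMel28, beside medians of 0 and 0.003 over all genes. Called in both lines were 3 of the 8 genes of each list, of which WLS rose in both, CTNNB1 fell in both and FZD7 went in opposite directions. A further 28 members were called with Dox in neither line. The shares of all genes called in both lines or in neither are not given here. These overlaps are thus not read as traits of the members. Without MeWo Dox replicate 1 the counts were 11 in MeWo (8 higher and 3 lower, with GSK3A, TCF7 and TCF7L1 added) and 11 of 41 in SkMel28 (LRP6, TCF7L1 and TCF7L2 added). The share of all genes called without that library is not given here.

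How the libraries are scaled bears on these counts. When libraries were scaled to the ERCC spike-in RNAs instead of the authors' factors, the median gene shifted by 0.22 in MeWo and by -0.08 in SkMel28 on the log2 scale. Of all genes called in MeWo, 84.56% were then higher with Dox, against 51.35% with the authors' factors, and in SkMel28 42.5% against 53.85%. The members called became 12 in MeWo, of which 11 rose, and 4 in SkMel28, all of which rose, and CTNNB1 was called in neither line. Of the 12616 genes 2480 were then called in MeWo and 927 in SkMel28, against 2107 and 1378 with the authors' factors. All changes are given relative to the authors' scaling unless another is named.

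**Figure D1:**
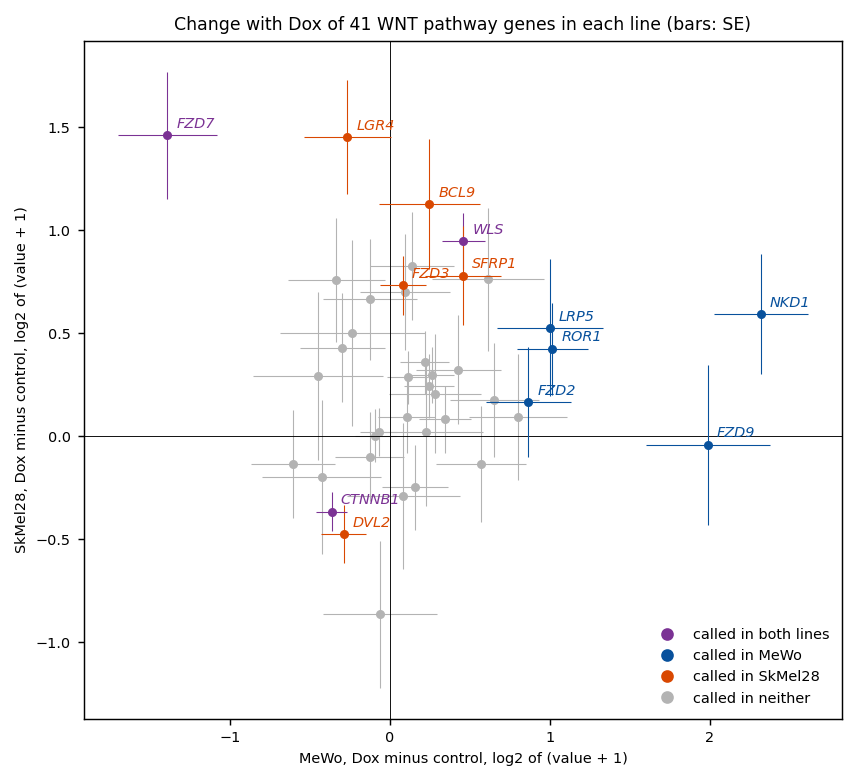
Change with Dox of each of the 41 WNT pathway genes in MeWo (horizontal axis) and in SkMel28 (vertical axis), as Dox minus control on log2 of (value + 1), with bars for the SE and colours for the lines in which a gene was called. FZD7 lies at -1.39 and 1.46, NKD1 and FZD9 lie far to the right, and CTNNB1 lies at -0.37 on both axes but is called in neither line with spike-in scaling.

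Of the 13 members called with Dox, 8 have a promoter in the RefSeq set used here (250 bases before to 50 after the start, GRCh38.p14), and 4 of them are shown because they include both matched genes that were called in the 2 lines and all 3 that hold an E-box of the kind that MITF and its relatives bind. Letters searched, on both strands, were CACGTG and CATGTG for the E-box and CTTTGAT and CTTTGAA for TCF and LEF factors. Capitals mark matches, and no 2 matches overlap.
WLS, chr1:68232474-68232773, minus strand: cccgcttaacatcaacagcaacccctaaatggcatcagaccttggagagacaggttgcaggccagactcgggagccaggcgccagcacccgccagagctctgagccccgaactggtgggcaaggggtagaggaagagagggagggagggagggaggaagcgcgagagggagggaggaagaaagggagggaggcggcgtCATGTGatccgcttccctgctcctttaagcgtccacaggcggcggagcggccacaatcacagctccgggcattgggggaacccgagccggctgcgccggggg
DVL2, chr17:7234468-7234767, minus strand: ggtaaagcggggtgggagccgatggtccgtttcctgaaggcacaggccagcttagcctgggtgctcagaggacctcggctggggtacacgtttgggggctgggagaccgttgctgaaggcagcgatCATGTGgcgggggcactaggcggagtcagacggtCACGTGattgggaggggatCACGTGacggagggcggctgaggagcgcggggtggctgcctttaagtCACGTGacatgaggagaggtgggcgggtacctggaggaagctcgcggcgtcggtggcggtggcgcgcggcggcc
BCL9, chr1:147541251-147541550, plus strand: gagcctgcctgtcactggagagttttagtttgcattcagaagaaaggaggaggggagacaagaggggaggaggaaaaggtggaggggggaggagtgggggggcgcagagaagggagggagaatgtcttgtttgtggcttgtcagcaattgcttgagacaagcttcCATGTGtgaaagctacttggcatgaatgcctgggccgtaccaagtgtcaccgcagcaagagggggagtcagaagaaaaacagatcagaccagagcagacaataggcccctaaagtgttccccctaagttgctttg
CTNNB1, chr3:41199255-41199554, plus strand: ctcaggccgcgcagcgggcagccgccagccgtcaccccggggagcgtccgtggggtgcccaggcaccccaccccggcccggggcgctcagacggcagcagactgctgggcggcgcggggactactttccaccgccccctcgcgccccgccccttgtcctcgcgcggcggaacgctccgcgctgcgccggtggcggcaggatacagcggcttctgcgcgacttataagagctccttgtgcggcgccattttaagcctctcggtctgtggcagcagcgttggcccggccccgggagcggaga
WLS holds 1 CATGTG, which begins at base -52 from the start shown and at -29 from another WLS start in the set. BCL9 holds 1, which begins at -85. DVL2 holds 4 E-boxes, which begin between -124 and -24, 3 of them CACGTG, and CTNNB1 holds none of the searched letters in this window. Over all 35116 promoters of this length 7.256% hold CACGTG and 11.098% hold CATGTG, and 33 promoters (0.094%) hold at least 3 copies of CACGTG. Of the 29 members with a promoter, 2 hold CACGTG (APC and DVL2) and 5 hold CATGTG (APC, BCL9, DVL2, PORCN and WLS). These members have 38 promoters between them, and a member counts when any of its promoters matches. Their counts and the shares of promoters are thus in unlike units. CTTTGAT is in 2.617% of all promoters and in 0 of the 29, and CTTTGAA is in 4.428% and in 1, DKK1. These matches describe letters, and no binding was measured in these samples.

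The ligands themselves were near the limit of detection. WNT10B, a ligand of the β-catenin branch, read 0.288, 0.389 and 0.324 in MeWo control, 0.319, 1.14 and 0 in MeWo Dox, 2.78, 2.54 and 0.766 in SkMel28 control and 0.891, 1.00 and 2.42 in SkMel28 Dox. WNT5A, best known for signalling without β-catenin, read 0.288, 0 and 0 in MeWo control and 0 in the 3 MeWo Dox libraries. In SkMel28 it read 1.11, 0.317 and 0 without and 1.48, 1.34 and 0.907 with Dox, and the groups overlapped (log2 0.66, SE 0.29, adjusted p = 0.174). Neither ligand was called with Dox in either line, at 0 to 10 reads per library, and the fitted changes of WNT10B were 0.08 (SE 0.35) in MeWo and -0.29 (SE 0.35) in SkMel28.

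WLS, the carrier that takes WNT proteins to the cell surface, was the one member with a called rise in both lines. In MeWo it read 39.2, 33.4 and 36.6 without and 48.5, 47.0 and 55.9 with Dox, a 1.39-fold rise (log2 0.46, SE 0.14, adjusted p = 0.0268). In SkMel28 it read 33.7, 31.4 and 33.0 without and 69.5, 60.5 and 62.0 with Dox, a 1.957-fold rise (log2 0.95, SE 0.14, adjusted p = 0.000154). All Dox libraries lay above all control libraries of their line. The changes of the 2 lines differed by -0.49 (SE 0.19), which did not pass the test (adjusted p = 0.123). The call in SkMel28 held in all 22 alternative analyses, and that in MeWo was lost without control replicate 2 (adjusted p = 0.117), without control replicate 3 (0.0725), without Dox replicate 3 (0.117) and in a fit of the MeWo libraries alone (0.0860). WLS lies at chr1:68098473-68233120 (hg38, minus strand) and overlaps the listed antisense gene GNG12-AS1, which has no exon at the 3′ end of WLS. PORCN, the enzyme that attaches the lipid to WNT proteins, was called in neither line, with group means of 15.6 to 21.6.

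**Figure D2:**
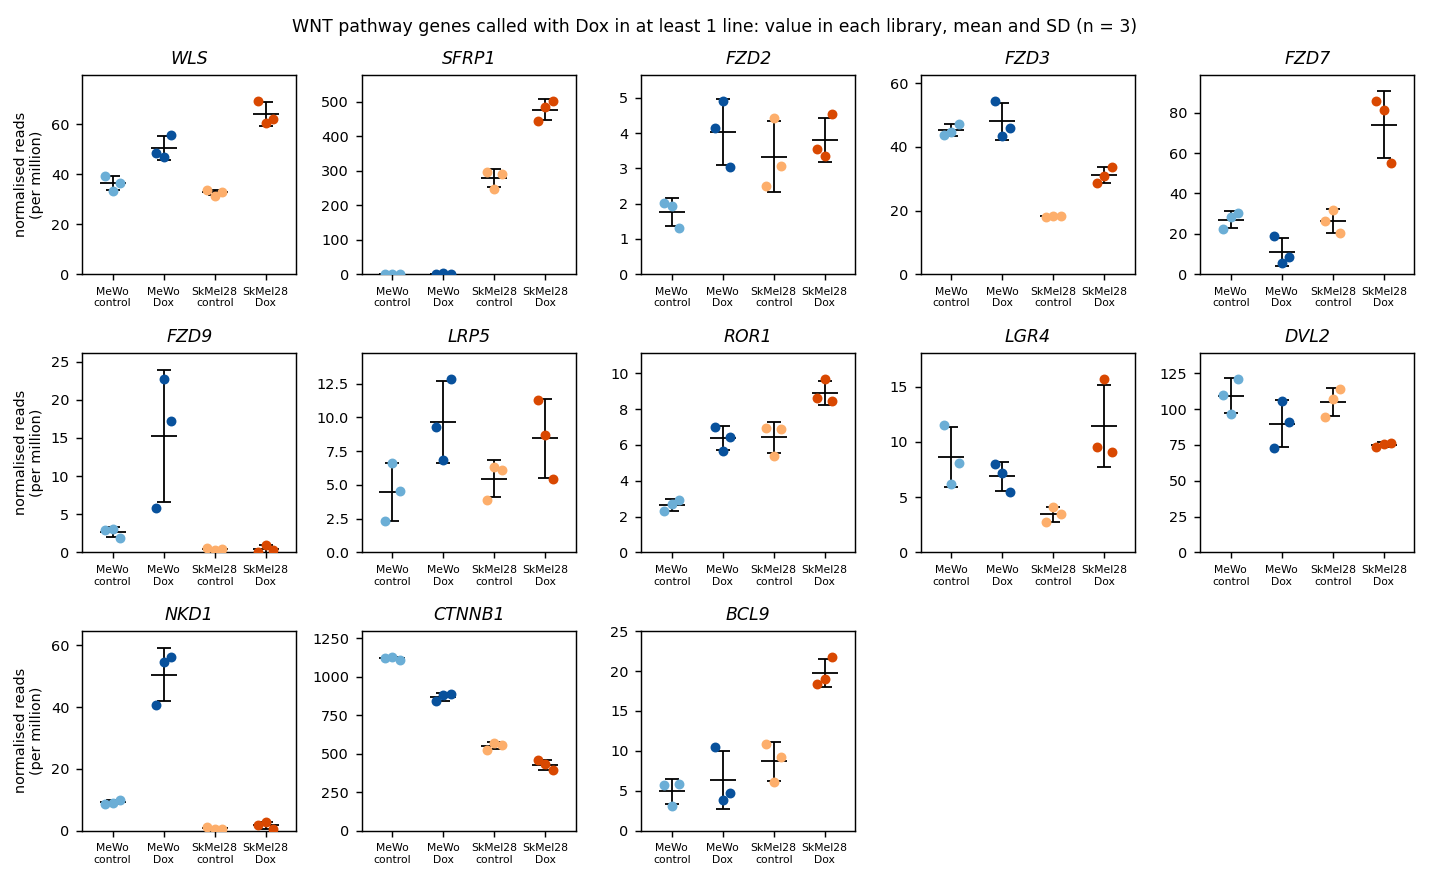
Normalised reads, scaled to a library of 1000000, of the 13 WNT pathway genes called with Dox in at least 1 line, with 1 point per library and bars for the mean and SD of 3 libraries in each group. WLS is higher with Dox in both lines, FZD7 is lower with Dox in MeWo and higher in SkMel28, and SFRP1 is near 0 in all MeWo libraries.

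SFRP1, a secreted protein that binds WNT ligands outside the cell, had the widest gap of any member between the lines. SkMel28 control libraries read 296, 247 and 290.1 and SkMel28 Dox libraries 442, 485 and 503, a 1.72-fold rise without overlap (log2 0.78, SE 0.24, adjusted p = 0.0459). The MeWo libraries read 0.864, 0 and 0.648 without and 0.638, 1.90 and 0.677 with Dox, that is 0 to 5 reads each. The SkMel28 rise was lost in 11 of 22 alternatives, among them spike-in scaling (adjusted p = 0.1004), the replicate block (0.0688) and the removal of MeWo control replicate 3 (0.0523) or of any SkMel28 library (adjusted p = 0.0957, 0.155 and 0.117 for the controls and 0.106, 0.149 and 0.132 for Dox). Its spread in the fit is shared with the MeWo libraries, where SFRP1 is near 0, and over all alternatives its adjusted p ran from 1.57e-06 to 0.504. DKK1 and DKK2, which block the LRP co-receptors, were called in neither line. DKK1 read 1.37 ± 1.00 and 2.39 ± 0.433 (mean ± SD, n = 3) in MeWo without and with Dox and 0.803 ± 0.525 and 2.06 ± 0.881 in SkMel28. Group means of DKK2 were 0.0990 to 2.04, with both SkMel28 groups at the floor.

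Among the frizzled receptors, FZD7 moved in opposite directions in the 2 lines. Control libraries of the lines overlapped, at 22.2, 28.4 and 30.4 in MeWo and 26.5, 32.1 and 20.3 in SkMel28. With Dox FZD7 read 18.8, 5.31 and 8.47 in MeWo, or 0.403 times the control mean (log2 -1.39, SE 0.31, adjusted p = 0.00473), and 86.1, 81.2 and 55.3 in SkMel28, or 2.83 times the control mean (log2 1.46, SE 0.31, adjusted p = 0.00454). The Dox and control values did not overlap in either line, and MeWo Dox replicate 1 was the one closest to its controls. The difference between the changes of the lines was -2.85 (log2, SE 0.44), with an adjusted p of 0.00101. The SkMel28 rise and the difference between the lines held in every alternative run, and the MeWo fall was lost in 1 of 22, the fit of the MeWo libraries alone (adjusted p = 0.118). FZD7 lies at chr2:202033855-202038441 (hg38, plus strand).

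FZD9 and FZD2 rose in MeWo. FZD9 read 2.88, 3.11 and 1.94 in MeWo control and 5.75, 22.7 and 17.3 with Dox, a 5.77-fold rise of the mean (log2 1.99, SE 0.39, adjusted p = 0.00172), with a wide spread in which replicate 1 was the lowest. In SkMel28 it stayed between 0 and 1.00, at 0 to 3 reads per library in both groups. FZD2 read 2.02, 1.94 and 1.30 in MeWo control and 4.15, 4.93 and 3.05 with Dox (log2 0.87, SE 0.27, adjusted p = 0.0339), and 3.34 ± 0.997 and 3.81 ± 0.634 in SkMel28. Its call was lost without MeWo control replicate 1, 2 or 3 (adjusted p = 0.0556, 0.0681 and 0.131), without MeWo Dox replicate 2 (0.123), in the fit of MeWo alone (0.0771) and in both count models (edgeR 0.0575, DESeq2 0.132). The rise of FZD9 in MeWo was lost only in the fit of MeWo alone (adjusted p = 0.0722).

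FZD3 rose in SkMel28 from 18.1, 18.4 and 18.4 to 28.8, 30.8 and 33.8, a 1.70-fold change without overlap (log2 0.73, SE 0.14, adjusted p = 0.00268) that was lost only with spike-in scaling (adjusted p = 0.0582). In MeWo it read 43.8, 44.7 and 47.3 without and 54.6, 43.6 and 46.1 with Dox, and those groups overlapped. FZD1, FZD4, FZD5, FZD6 and FZD8 were called with Dox in neither line, with group means of 2.11 to 4.92 for FZD1, 0.605 to 1.94 for FZD4 and 0.0960 to 1.23 for FZD8. FZD6 differed mainly by line, with 13.6 ± 4.56 and 8.67 ± 3.30 in MeWo and 45.9 ± 2.23 and 41.8 ± 4.08 in SkMel28, without and with Dox. FZD5 read 11.4, 8.89 and 13.8 in SkMel28 control and 4.16, 6.35 and 6.95 with Dox, without overlap, but did not pass the test (log2 -0.86, SE 0.36, adjusted p = 0.143). Summed over the 9 frizzled genes, normalised reads were 98.4 ± 7.81 and 94.5 ± 8.34 in MeWo without and with Dox and 110.0 ± 6.39 and 164.4 ± 20.3 in SkMel28 (SD, n = 3, not tested).

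**Figure D3:**
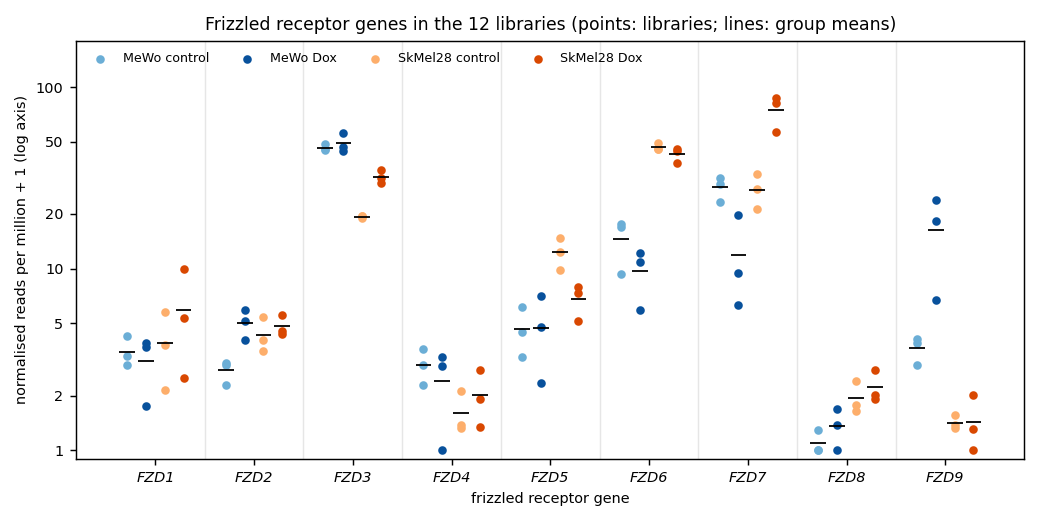
Normalised reads + 1 of the 9 frizzled receptor genes on a log axis, with 1 point for each of the 12 libraries and a line at each group mean. FZD7 separates the Dox groups of the 2 lines, FZD9 is raised in the MeWo Dox libraries, and FZD6 is higher in SkMel28 with and without Dox.

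Of the other receptors, LRP5 and ROR1 rose in MeWo and LGR4 rose in SkMel28. ROR1, a receptor tied to WNT5A signalling, read 2.30, 2.72 and 2.92 in MeWo control and 7.02, 5.69 and 6.44 with Dox, a 2.41-fold rise (log2 1.02, SE 0.22, adjusted p = 0.00450) that held in all 22 alternatives. In SkMel28 it read 6.96, 5.39 and 6.90 and 8.61, 9.69 and 8.46, which did not overlap and did not pass the test (adjusted p = 0.268). LRP5, the co-receptor of frizzled, read 2.30, 6.61 and 4.53 in MeWo control and 9.26, 6.82 and 12.9 with Dox (log2 1.00, SE 0.33, adjusted p = 0.0476). This call has the highest adjusted p of the 8 in MeWo. It was lost in 13 of 22 alternatives, which include the removal of MeWo control replicate 1 or 3 (adjusted p = 0.206 and 0.0963), of MeWo Dox replicate 3 (0.194), of SkMel28 control replicate 1, 2 or 3 (0.0514, 0.0555 and 0.0597) and of SkMel28 Dox replicate 1 or 2 (0.0508 and 0.0634).

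LGR4, the receptor for R-spondins, which protect frizzled proteins from removal, read 2.78, 4.13 and 3.45 in SkMel28 control and 9.50, 15.7 and 9.07 with Dox, a 3.31-fold rise (log2 1.45, SE 0.27, adjusted p = 0.00194). In MeWo it read 11.5, 6.22 and 8.10 and 7.98, 7.20 and 5.42, with overlap. The changes of the lines differed by -1.72 (SE 0.39, adjusted p = 0.0136), and both this difference and the SkMel28 rise held in every alternative run. LRP6, the second co-receptor, lay just outside the threshold in SkMel28 (log2 0.83, SE 0.26, adjusted p = 0.0510), at 9.19, 6.66 and 4.60 without and 13.4, 16.4 and 8.76 with Dox. It passed in 7 of 22 alternatives, for example without SkMel28 Dox replicate 3 (adjusted p = 0.0234) or without SkMel28 control replicate 1 (0.0320). RYK, a receptor with a WNT-binding domain, read 47.8, 57.9 and 54.7 in MeWo control, 55.2, 47.4 and 72.1 in MeWo Dox, 80.2, 94.2 and 78.2 in SkMel28 control and 103, 103 and 68.0 in SkMel28 Dox and was called with Dox in neither line.

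The membrane ligases that remove frizzled receptors were not called with Dox in the main test. With spike-in scaling ZNRF3 was called in MeWo (log2 0.89, adjusted p = 0.0375). ZNRF3 read 4.90, 5.05 and 5.83 in MeWo control and 9.26, 6.82 and 10.8 with Dox, without overlap but with an adjusted p of 0.117, and 9.47, 12.7 and 8.05 and 13.7, 15.04 and 6.95 in SkMel28. RNF43 read 0.864, 0.777 and 0.324 and 0, 0.758 and 0.339 in MeWo, at 0 to 3 reads per library. In SkMel28 it read 10.3, 10.2 and 8.81 without and 13.1, 14.7 and 12.7 with Dox, also without overlap (log2 0.43, SE 0.27, adjusted p = 0.357).

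NKD1, which binds dishevelled and dampens the signal, had the largest log2 change of any member in MeWo, and rose from 8.64, 8.94 and 10.0 to 40.5, 54.6 and 56.2, or 5.48-fold (log2 2.32, SE 0.29, adjusted p = 2.71e-05). The call held in all 22 alternatives, with fitted changes of 1.95 to 2.58. In SkMel28 NKD1 read 1.11, 0.635 and 0.383 without and 1.78, 2.67 and 0.604 with Dox, with overlap (log2 0.59, SE 0.29, adjusted p = 0.233). The changes of the lines differed by 1.73 (SE 0.41, adjusted p = 0.0185). That difference was lost without MeWo control replicate 2 (adjusted p = 0.0505), without MeWo Dox replicate 3 (0.0509), with a pseudocount of 0.1 (0.205), in edgeR (0.285) and in DESeq2 (0.267). The SkMel28 libraries held 1 to 8 reads of NKD1. NKD1 lies at chr16:50548396-50649249 (hg38, plus strand).

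Dishevelled proteins relay the signal from frizzled to the destruction complex. DVL2 read 94.1, 107 and 114 in SkMel28 control and 73.3, 75.5 and 76.5 with Dox, a fall to 0.716 times the control mean without overlap (log2 -0.47, SE 0.14, adjusted p = 0.0387). In MeWo it read 110.0, 96.7 and 121 and 73.1, 105 and 91.1, with overlap (log2 -0.29, SE 0.14, adjusted p = 0.174). The SkMel28 call was lost in 8 of 22 alternatives: spike-in scaling (adjusted p = 0.0529), no mean-variance trend (0.0967), and the removal of MeWo control replicate 1 (0.0561), SkMel28 control replicate 2 or 3 (0.0998 and 0.159) or SkMel28 Dox replicate 1, 2 or 3 (0.123, 0.1102 and 0.0779). DVL1 and DVL3 were called with Dox in neither line, and the group means of DVL3 were 84.1 to 91.8. DVL1 read 96.2 ± 7.48 and 116 ± 9.72 in MeWo and 54.5 ± 2.77 and 67.7 ± 10.98 in SkMel28, without overlap in either line (adjusted p = 0.195 and 0.184). It was called in MeWo with spike-in scaling (adjusted p = 0.0441).

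No gene of the destruction complex was called with Dox, 0 of 6 in each line by limma, edgeR and DESeq2. With 16.7% of all genes called by limma in MeWo and 10.9% in SkMel28, 0 of 6 lies near the background. At an unadjusted p under 0.05 in limma there was 1 in MeWo (AXIN1) and 1 in SkMel28 (CSNK1A1), and with spike-in scaling AXIN1 and GSK3A were called in MeWo. CSNK1A1, which encodes the kinase that primes β-catenin for degradation, read 47.8, 50.9 and 53.4 in MeWo control, 62.2, 52.7 and 50.1 in MeWo Dox, 72.4, 72.0 and 61.3 in SkMel28 control and 86.7, 79.9 and 84.3 in SkMel28 Dox. GSK3A and GSK3B, the kinases that mark β-catenin for degradation, and the scaffolds AXIN1 and APC had group means of 21.2 to 43.1. Among them GSK3A had the widest spread, at 20.1, 43.6 and 55.9 in MeWo Dox, where replicate 1 lay below all controls, and without that library it passed in MeWo (log2 0.99, adjusted p = 0.00147). AXIN2, a feedback gene often read as a gauge of β-catenin activity, was low throughout, at 1.44, 1.17 and 2.27 in MeWo control, 1.28, 4.17 and 1.36 in MeWo Dox, 2.51, 2.22 and 1.92 in SkMel28 control and 4.16, 2.01 and 1.21 in SkMel28 Dox. Its fitted changes were 0.23 (SE 0.36) in MeWo and 0.02 (SE 0.36) in SkMel28, and at 3 to 14 reads per library a change of this size was not detectable at this depth.

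β-catenin mRNA fell in both lines. CTNNB1 read 1124, 1128 and 1108 in MeWo control and 841, 882 and 886 with Dox, and so fell by 22.4% (log2 -0.37, SE 0.10, adjusted p = 0.0153). In SkMel28 it read 524, 569.6 and 556 without and 456, 435 and 391 with Dox, and so fell by 22.3% (log2 -0.37, SE 0.10, adjusted p = 0.0207). The groups did not overlap in either line. With spike-in scaling the MeWo change was -0.09 (adjusted p = 0.785) and the SkMel28 change -0.47 (0.117). Without a mean-variance trend the calls were lost too (adjusted p = 0.0753 and 0.0964). Leaving out MeWo control replicate 1 or 2 gave 0.0503 and 0.0620 in MeWo, and leaving out SkMel28 control replicate 2 or 3 or SkMel28 Dox replicate 2 or 3 gave 0.0698, 0.0734, 0.0660 and 0.0912 in SkMel28. CTNNB1 lies at chr3:41194741-41260096 (hg38, plus strand) and overlaps ULK4 on the other strand, which has no exon at its 3′ end.

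Of the nuclear partners of β-catenin, BCL9, which ties it to PYGO proteins, rose in SkMel28. It read 10.9, 6.03 and 9.20 without and 18.4, 19.1 and 21.8 with Dox, a 2.27-fold rise without overlap (log2 1.13, SE 0.32, adjusted p = 0.0288), and 5.76, 3.11 and 5.83 and 10.5, 3.79 and 4.74 in MeWo, with overlap. The SkMel28 call was lost with a pseudocount of 0.1 (adjusted p = 0.0554) and without SkMel28 control replicate 2 or 3 (0.124 and 0.0693) or SkMel28 Dox replicate 1, 2 or 3 (0.0731, 0.0832 and 0.0889), and kept in edgeR and DESeq2. The DNA-binding partners LEF1, TCF7, TCF7L1 and TCF7L2 were called with Dox in neither line. TCF7 passed in MeWo with spike-in scaling (adjusted p = 0.0183) and without MeWo Dox replicate 1 (0.0202). LEF1 read 40.03, 40.8 and 49.6 in MeWo control, 61.0, 47.4 and 44.4 in MeWo Dox, 69.6, 76.5 and 62.5 in SkMel28 control and 94.7, 97.6 and 76.5 in SkMel28 Dox. MeWo Dox replicate 1 decided the calls of TCF7L1 and TCF7L2. In MeWo Dox TCF7L1 read 19.5, 8.72 and 6.10 and TCF7L2 34.8, 15.9 and 12.2, with replicate 1 the highest of all MeWo libraries. Without MeWo Dox replicate 1 both passed in SkMel28 (adjusted p = 0.0205 and 0.0176) and TCF7L1 passed in MeWo in the opposite direction (log2 -0.77, adjusted p = 0.0211). TCF7, BCL9L and PYGO2 had group means of 3.67 to 7.41, 7.81 to 16.5 and 59.6 to 64.7, and the last pair was called with Dox in neither line.

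The second comparison tested whether the change with Dox differed between the lines, as the MeWo change minus the SkMel28 change. Among the 41 members 4 were called, or 9.76%, where the background was 7.09% of all genes (3.71% higher, 3.38% lower). NKD1 (1.73) and FZD9 (2.03) had a higher change in MeWo. FZD9 entered the table through MeWo and held 0 to 3 reads per SkMel28 library. Its SkMel28 change could thus hardly be measured, and its difference is in part fixed by that filter. NKD1 held 1 to 8 reads per SkMel28 library, and its difference was lost with a pseudocount of 0.1, in edgeR and in DESeq2. LGR4 (-1.72) rose in SkMel28, where its MeWo change was -0.27, and the -2.85 of FZD7 is the gap between a fall of one line and a rise of like size in the other. FZD9 had an adjusted p of 0.0337 and lost its call in 14 of 21 alternatives, with adjusted p of 0.301 in edgeR and 0.178 in DESeq2, and from 0.0593 to 0.0949 when 1 library, any but MeWo Dox replicate 1 or SkMel28 Dox replicate 2, was left out. Without MeWo Dox replicate 1 the count rose to 9, with BCL9, FZD3, GSK3A, TCF7L1 and TCF7L2 added, and the share of all genes called without that library is not given here. With spike-in scaling the same 4 genes were called, although the median gene then shifted by 0.32 and 89.53% of all called genes were higher, against 52.35% with the authors' factors. Of the 12616 genes 1519 were then called, against 894.

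The third comparison asked how the lines differ, SkMel28 minus MeWo, first without Dox. Here 20 of 41 members were called, or 48.8%, against a background of 51.4% of all genes, with 13 higher (background 26.6%) and 7 lower (background 24.8%) in SkMel28. With Dox 21 were called, or 51.2%, against 53.6%, with 13 higher (background 28.0%) and 8 lower (background 25.6%). The members thus differed between the lines about as often as other genes. The group means of the 2 comparisons share no library, but the spread of each gene is estimated from all 12 libraries in both. The calls of the 2 comparisons are thus not independent. In both, 14 members were called, of the 20 and of the 21, each in the same direction. The share of all genes called in both comparisons is not given here. The overlap is thus not read as a trait of the members. FZD6, FZD8, GSK3B, RYK, LEF1, CSNK1A1, RNF43 and SFRP1 were higher in SkMel28 in both, and DVL1, NKD1, CTNNB1, DKK2, FZD9 and FZD3 were lower. FZD8, RNF43 and SFRP1 entered the table through SkMel28, and DKK2 and FZD9 through MeWo. The calls of those genes are thus in part fixed by the filter of the table. The calls of 2 of these 14 were lost without 1 library: DKK2 without Dox (MeWo control replicate 1, adjusted p = 0.0502) and with Dox (MeWo Dox replicate 1, 0.160, SkMel28 Dox replicate 2 or 3, 0.0782 and 0.0764), and FZD8 without Dox (MeWo control replicate 2 or 3, 0.0775 and 0.0796, SkMel28 control replicate 1, 0.109) and with Dox (MeWo Dox replicate 1 or 2, 0.166 and 0.0648, SkMel28 Dox replicate 1 or 2, 0.161 and 0.0563). FZD8 with Dox was also lost in edgeR (0.0912) and DESeq2 (0.206). With spike-in scaling GSK3B, RYK, CSNK1A1 and FZD8 lost their calls with Dox (adjusted p = 0.0945, 0.129, 0.103 and 0.0945). With that scaling 61.93% of all called genes were higher in SkMel28 without Dox, against 51.69%, and 39.59% against 52.22% with Dox, and 22 members (15 higher, 7 lower) and 16 members (7 higher, 9 lower) were called. Of the 12616 genes 5861 without and 6333 with Dox were then called, against 6485 and 6766.

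SFRP1 was at least 278-fold higher in SkMel28 than in MeWo without Dox, computed against a floor of 3 reads per library in MeWo, and 445-fold higher with Dox, where MeWo libraries held up to 5 reads. RNF43 was at least 9.75-fold higher without and at least 13.0-fold higher with Dox on the same floor. SFRP1 and RNF43 were listed through SkMel28 libraries, and FZD9 through MeWo libraries, so that part of these differences comes with the filter of the table. FZD6 was 3.37-fold and 4.83-fold higher (log2 1.74, SE 0.26, adjusted p = 2.86e-05 without Dox; log2 2.21, SE 0.26, adjusted p = 1.80e-06 with Dox). In the other direction, CTNNB1 in SkMel28 was 0.491 times the MeWo level both without and with Dox (log2 -1.03, SE 0.10, adjusted p = 1.16e-07 without Dox). NKD1 was at 0.0772 times the MeWo level without Dox and 0.0334 times with Dox, and FZD3 at 0.404 and 0.648 times. FZD9 was at least 2.70-fold lower in SkMel28 without Dox and at least 16.3-fold lower with Dox, against a floor of 3 reads per library. These calls held in every alternative run, apart from FZD9 without Dox, which was lost with a pseudocount of 5 (adjusted p = 0.0835).

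Called without Dox only were ROR1, LGR4, BCL9L, WNT10B, FZD5 and ZNRF3, and with Dox only WLS, BCL9, AXIN1, GSK3A, TCF7L1, FZD7 and WNT5A. WNT10B and WNT5A entered the table through SkMel28 and were at the floor in both MeWo groups. Their calls are thus in part fixed by the filter of the table. Several of the 13 calls depended on 1 library. Without 1 library at a time BCL9L lost its call (without MeWo control replicate 1 or 3, adjusted p = 0.179 and 0.0538, SkMel28 control replicate 1 or 2, 0.135 and 0.196, SkMel28 Dox replicate 1 or 2, 0.0539 and 0.0501), as did WNT10B (SkMel28 control replicate 1 or 2, 0.0699 and 0.0602) and ZNRF3 (MeWo control replicate 1 or 2, 0.0621 and 0.0577, SkMel28 control replicate 2, 0.0992). With Dox the same held for AXIN1 (SkMel28 Dox replicate 1, 0.0699), GSK3A (MeWo Dox replicate 2 or 3, 0.0926 and 0.171, SkMel28 Dox replicate 2, 0.120) and TCF7L1 (MeWo Dox replicate 2 or 3, 0.0858 and 0.178, SkMel28 Dox replicate 1 or 3, 0.0851 and 0.0950). WLS, at a difference of 0.34, lost its call without any 1 of 9 libraries, all but MeWo control replicate 2, MeWo Dox replicate 3 and SkMel28 control replicate 2, with adjusted p of 0.0504 to 0.156. With spike-in scaling WLS and TCF7L1 lost their calls too (0.658 and 0.0920). Whether these differences between the lines change with Dox is the test of the second comparison, which only FZD7 and LGR4 of these 13 passed. ROR1 was 2.43-fold higher in SkMel28 without Dox (log2 1.02, SE 0.22, adjusted p = 0.00104), and with Dox the difference was 0.43 (adjusted p = 0.117). FZD5 was 3.12-fold higher in SkMel28 without Dox (log2 1.44, SE 0.36, adjusted p = 0.00269) and differed by 0.64 with Dox (adjusted p = 0.141). FZD7 differed by -0.05 without Dox (adjusted p = 0.907) and was 6.83-fold higher in SkMel28 with Dox (log2 2.8, SE 0.31, adjusted p = 7.42e-07). A total of 11 members were called in none of the comparisons: PYGO2, DKK1, TCF7L2, FZD4, LRP6, AXIN2, DVL3, APC, TCF7, FZD1 and PORCN. The share of all genes called in none is not given here.

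**Figure D4:**
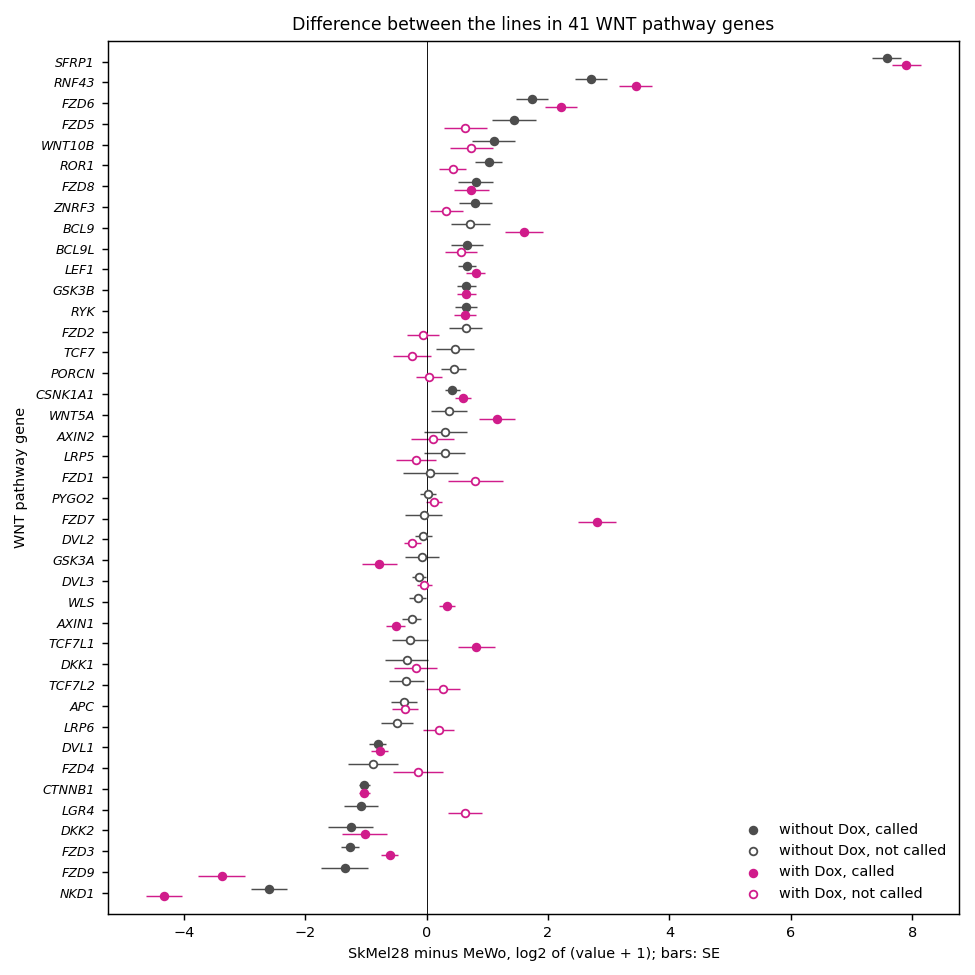
Difference between the lines, SkMel28 minus MeWo on log2 of (value + 1), of the 41 WNT pathway genes without Dox (dark grey) and with Dox (magenta), with bars for the SE and filled points for calls at an adjusted p under 0.05. SFRP1 and RNF43 are at the top and NKD1 at the bottom in both, while FZD7 is at -0.05 without and 2.8 with Dox.

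Other genes of the pathway, from a list of 92 of which 68 were measured, were called with Dox in 12 cases in each line (17.6%), of which 9 were higher and 3 lower both in MeWo (background 16.7%) and in SkMel28 (background 10.9%). Their median log2 change was 0.08 in MeWo and 0.17 in SkMel28, and the change differed between the lines in 4 (TLE4, NFATC2, CAMK2B and TLE1), or 5.88% against a background of 7.09%. NFATC2, a transcription factor of the calcium branch, rose in both lines. Its MeWo means were 4.52 ± 1.36 without and 52.4 ± 13.0 with Dox (SD, n = 3; log2 3.27, SE 0.19, adjusted p = 5.33e-09), and those of SkMel28 176 ± 6.45 and 645 ± 22.2 (log2 1.87, SE 0.19, adjusted p = 4.03e-06). CXXC5, which binds dishevelled, rose in both lines as well, by 0.95 and 1.34 on the log2 scale. TLE4, a corepressor of TCF factors, rose in MeWo, where it had 4.32 ± 1.38 without and 30.5 ± 2.37 with Dox (log2 2.59, SE 0.34, adjusted p = 3.75e-05), and was at 0.573 ± 0.505 and 0.748 ± 0.682 in SkMel28. APC2, a relative of APC, rose in SkMel28 from 5.38 ± 3.07 to 21.4 ± 1.79 (log2 1.92, SE 0.41, adjusted p = 0.00478). PRICKLE3, of the planar polarity branch, fell in both lines (-0.76 and -0.95), KREMEN2, a receptor for Dickkopf proteins, fell in MeWo (-1.35) and NFATC3 fell in SkMel28 (-0.45). TLE4 in MeWo and APC2 in SkMel28 lost their calls with a pseudocount of 0.1 (adjusted p = 0.0502 and 0.146), and PRICKLE3 in MeWo with spike-in scaling (0.112). CXXC5 lost its MeWo call without MeWo control replicate 2 or 3 (0.138 and 0.0923) or MeWo Dox replicate 1 or 2 (0.0721 and 0.101), and NFATC3 lost its call without any 1 of the 6 SkMel28 libraries (0.0615 to 0.0954). The difference of CAMK2B was lost without any library but MeWo Dox replicate 1, SkMel28 control replicate 2 and SkMel28 Dox replicate 1 (0.0593 to 0.0757), and in edgeR (0.175). CAMK2B had means of 0 and 0.239 in MeWo without and with Dox, so its MeWo change could hardly be measured. The difference of TLE4 was lost with a pseudocount of 0.1 (0.237), in edgeR (0.191) and in DESeq2 (0.0857). Between the lines 45 of these 68 genes were called without Dox (66.2%, background 51.4%) and 44 with Dox (64.7%, background 53.6%).

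Genes that textbooks give as β-catenin targets were followed as well, 15 measured of 18 listed, of which MITF is the target of the hairpin. Called in MeWo were 8 (53.3%, 5 rose and 3 fell), and 6 in SkMel28 (40%, 5 rose and 1 fell), where 16.7% and 10.9% of all genes were called, with median log2 changes of -0.12 and 0.47. MITF, the hairpin's own target, is counted among the falls in both lines and is the only fall in SkMel28. The list was written with earlier results of these data known, so these shares are not a test of the pathway. EPHB3, a receptor for ephrins, rose in both lines, with means of 0.312 ± 0.325 and 14.3 ± 1.88 in MeWo without and with Dox, and 1.75 ± 0.692 and 16.4 ± 4.35 in SkMel28. In MeWo CCND1 (cyclin D1) rose from 126 ± 22.5 to 259 ± 96.8 and POU3F2, a neural and melanoma transcription factor, from 9.45 ± 2.59 to 19.2 ± 2.23, while ID2 and SNAI2 fell (-0.86 and -0.85 on the log2 scale). In SkMel28 JUN rose from 31.1 ± 8.07 to 114 ± 1.64 and TNFRSF19 from 17.1 ± 3.67 to 38.5 ± 7.12. JUN had a called rise in MeWo too, from 202 ± 6.92 to 306 ± 56.6 (log2 0.58, SE 0.16, adjusted p = 0.0208). That MeWo call was lost in 7 of 22 alternatives. The change differed between the lines for 5 of the 15 (33.3%, background 7.09%), with a higher change in MeWo for CCND1 (1.54) and a higher change in SkMel28 for ID2, JUN, NRCAM and CD44 (-1.40, -1.29, -1.16 and -1.08). In the fit of MeWo alone CCND1, POU3F2 and SNAI2 lost their MeWo calls (adjusted p = 0.117, 0.0729 and 0.137). POU3F2 lost its call without MeWo control replicate 2 too (adjusted p = 0.0507), and ID2 and SNAI2 lost theirs in MeWo with spike-in scaling (0.0793 and 0.0800). The difference of NRCAM was lost in 12 of 21 alternatives, among them edgeR (0.374) and DESeq2 (0.509). These include the removal of MeWo control replicate 1, MeWo Dox replicate 3 or any SkMel28 library (0.0517 to 0.0817). NRCAM had means of 0.0960 and 0 in MeWo without and with Dox, so its MeWo change could hardly be measured. Most of these genes answer to other pathways too, and AXIN2, NKD1, LEF1 and RNF43, known as feedback genes of β-catenin, are given above. Of those 4 only NKD1 was called with Dox, in MeWo.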

How the data were processed

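RNA of 12 samples was measured by QuantSeq Forward 3′ end sequencing. The deposited values are a normalised signal that the authors made with edgeR: reads of a gene per 1000000 of the library's effective size. The submitters' processing notes name FastQC 0.11.7, cutadapt 2.8, STAR 2.5.1b and hg38. The counting tool, annotation and strand setting are not given in the sources used here, so overlapping genes may share reads. In every library 100% of values were whole multiples of 1 read (tolerance 0.01), which gave read totals and the floor of 3 reads per library. Floors and bounds cover counting error only, since reads without molecular identifiers are not independent molecules. The 67 spike-ins were set aside.

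The main test on the 12616 genes was limma (version 3.58.1, R version 4.3.3) applied to log2(value + 1) (mean-variance trend, all 12 libraries, 4 group means, two-sided, Benjamini-Hochberg over all genes of a contrast). The fit was tested on simulated data without a difference between the lines. Changes were placed only in genes with a mean of at least 10. That test thus does not cover the 18 members with a mean under 10 or those at the floor in a group. Alternatives were count models on the recovered reads (quasi-likelihood in edgeR 4.0.16, and DESeq2 1.42.0), pseudocounts of 0.1 and 5, a filter of at least 5 in 3 libraries, upper-quartile and spike-in scaling, no trend, a replicate block, each line alone, and leaving out each library. The study's methods name an edgeR count test, used here as an alternative because the deposited values are not counts.

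Every member is named. Library values are given for members called with Dox or in the difference of the changes and for the highest of each role, other members being given by mean, range or count except where 1 library or a near miss is described, a choice made after values were seen. For the other pathway genes and the textbook targets, at most the 3 largest called rises and falls per line with a mean of at least 10 were named with values, and calls in the difference of the changes were added after their values were seen. Members and lists were chosen with earlier results of these data known. Loci are from GENCODE 44 (hg38) and promoters from RefSeq (GRCh38.p14), which matched 29 of 41 members.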

Additional observations from a re-analysis of the deposited data

Results flagged for a closer look

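Of the 41 members, 4 changed with Dox in a different way in the 2 lines, by a direct test of the difference (limma, MeWo change minus SkMel28 change). For FZD7 the difference was -2.85 on the log2 scale, with a fall in MeWo and a rise in SkMel28. For LGR4 it was -1.72, with a called rise in SkMel28. For NKD1 it was 1.73 and for FZD9 2.03, both with a called rise in MeWo. FZD9 entered the table through MeWo and held 0 to 3 reads per SkMel28 library, so its SkMel28 change could hardly be measured. NKD1 held 1 to 8 reads per SkMel28 library. The differences of FZD7 and LGR4 held in all 21 alternatives, whereas NKD1 lost its call in 5 of 21 and FZD9 in 14 of 21. MeWo Dox replicate 1, the library with the lowest correlations with its replicates, had the FZD7 value closest to the controls and the lowest FZD9 and NKD1 values of its group. Its part in these results was measured by leaving it out, and all 4 differences were then still called.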

How the results depend on the processing

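Of the 205 pairs of a member and a comparison, 91 were called in at least 1 analysis. Over these 91 pairs no call changed direction, and of their values under the alternatives 1732 stayed on the same side of the threshold, 143 lost and 51 gained a call. For MITF and the other listed genes, of 47 calls with Dox or in the difference of the changes 19 held in every alternative, 28 were lost in at least 1 and 0 changed direction. Counts of called members outside 1.5 times the reported count were as follows. In MeWo 3 were called, against 8, in a fit of that line alone. In SkMel28 4 were called, against 8, with spike-in scaling and 5 with no mean-variance trend. For the difference of the changes 2 were called, against 4, with a pseudocount of 0.1, in edgeR and in DESeq2. Leaving out 1 library at a time gave 5 to 11 calls in MeWo, 4 to 11 in SkMel28, 2 to 9 for the difference, and 17 to 22 between the lines both without and with Dox. The low counts came without MeWo control replicate 2 or 3 (5 in MeWo), without SkMel28 control replicate 2 or 3 or Dox replicate 2 (4 in SkMel28), without SkMel28 Dox replicate 1 or 3 (5), and without MeWo control replicate 2 or MeWo Dox replicate 3 (2 for the difference), and the high count of 9 came without MeWo Dox replicate 1. The cause was not tested. Calls kept in every alternative were 2 of 8 in MeWo, 3 of 8 in SkMel28, 2 of 4 for the difference, 14 of 20 between the lines without Dox and 12 of 21 with Dox. Apart from spike-in scaling, the shares of all genes called or kept under these settings are not given here. The counts are thus not read as traits of the members.

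Whether equal replicate numbers share more than a number is not stated. Same-numbered control and Dox libraries had correlations of deviations of -0.305, -0.0726 and 0.0474 in MeWo and -0.105, 0.120 and 0.289 in SkMel28. Differently numbered pairs ranged from -0.353 to 0.339 over both lines. With so few pairs, these values cannot show whether equal numbers share a day or batch. With a replicate block 7 members were called in MeWo, 7 in SkMel28, 4 for the difference, and 21 and 19 between the lines without and with Dox. The share of all genes called with that block is not given here. Depth limits the 7 members at the floor and the others with few reads, for which changes rest on the pseudocount.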
